A study of Mus musculus with 12 samples.

Results

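The genes described here are the secreted WNT ligands, their frizzled receptors, the secreted WNT inhibitors of the SFRP and DKK families, Frzb and Wif1, and the nuclear or feedback genes Axin2, Lef1 and Tcf7. They were matched by symbol in a table of read counts per gene, and this choice was made with earlier results of these data known. It gave 42 genes of 23955: 19 ligands, 10 receptors, 10 inhibitors and 3 nuclear or feedback genes. At least 10 counts over all libraries were present for 29 of them, and 18 had enough counts to be tested among 12323 genes. The counts come from 12 RNA-seq libraries of mesenchymal stem cells, the stromal precursors of fat, bone and cartilage. Per the labels these were commercial cells from the marrow of female C57BL/6 mice, used at passage 9 to 10. All 3 groups carried the same adipogenic cocktail for 14 days (insulin at 5 ug/mL, dexamethasone at 1 uM and isobutylmethylxanthine at 0.5 mM). The groups of 4 libraries differed in what was added to it: 0.1% DMSO, the vehicle; 500 nM rosiglitazone (ROSI), which binds the fat-cell receptor PPARγ; or 50 nM tributyltin (TBT), an organotin that binds the retinoid X receptors and PPARγ. There was no group without the cocktail.

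WNT proteins are secreted lipid-modified signals that bind frizzled receptors together with LRP coreceptors. In the canonical branch this stops the destruction of β-catenin, which then works with LEF and TCF factors in the nucleus, and Axin2 is a widely used target gene of that branch. Secreted frizzled-related proteins (SFRP), Frzb and Wif1 bind WNTs outside the cell, while DKK1 and DKK2 act on the LRP coreceptors. In marrow stroma, canonical WNT signalling is known to hold back fat-cell formation and to favour bone formation.

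Library totals ran from 4027152 to 7474654 counts. TBT replicate 4 lay nearer to the vehicle libraries (mean r of 0.961 across genes) than to its own group (0.953). The ribosomal RNA precursor Rn45s held 6.85% of its counts, against 0.399% to 0.670% in the other TBT libraries. That share was 2.64% to 6.18% in DMSO and 1.36% to 9.27% in ROSI, so TBT replicates 1 to 3 lay below every other library. Values without TBT replicate 4 are given for Dkk2, Axin2, Fzd1 and some counts of calls, but not for every gene or list. Levels are in CPM (counts scaled by library size with edgeR's TMM factors). Marrow stromal markers summed to 3059 to 4075 CPM with DMSO, 1341 to 1534 with ROSI and 2406 to 3266 with TBT, most of it Cxcl12, Pdgfra and Ly6a. Of the 7 tested, Cxcl12, Pdgfra, Pdgfrb and Ly6a were called lower in ROSI than in DMSO, and Pdgfra and Ly6a in TBT. Lepr, Thy1 and Nt5e were not called against DMSO. Osteoblast markers summed to 643 to 937, 254 to 394 and 423 to 613, most of it Spp1, Runx2 and Col1a1. Spp1 and Col1a1 were called lower in ROSI, and Spp1 also in TBT (log2 fold change -1.07 ± 0.20 SE, edgeR adjusted p = 0.0026). Runx2 and Alpl were not called against DMSO. Sp7, Bglap, Ibsp and Dmp1 had 2, 16, 7 and 1 counts in all. Adipocyte markers summed to 1038 to 2020, 4371 to 5798 and 2224 to 3352, most of it Lpl and Fabp4, while Adipoq fell with TBT from 10.7 to 2.298 CPM (means). The 5 endothelial markers summed to 7.13 to 9.36, 2.26 to 4.42 and 5.02 to 7.49 CPM. Of these Kdr was called lower in ROSI, at 4.64, 1.41 and 4.05 CPM (means), and Cdh5 had 5 counts in all. The 4 lymphoid markers summed to 2.81 CPM at most. Genes for smell, taste and pheromone receptors, 1504 in all and normally off outside sense organs, are called sensory receptors below. Their reads summed to 290.0 to 749.9 CPM in DMSO, 63.4 to 73.4 in ROSI and 121 to 209 in TBT. The part of these differences in the results below was not tested, except where a value is given.

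With rosiglitazone, 11 of the 18 tested WNT genes passed the threshold, 10 of them lower and 1 higher than in DMSO (edgeR quasi-likelihood test, Benjamini-Hochberg adjusted p under 0.05 over all genes tested). Over all genes 22.6% passed in this comparison, 12.6% lower and 10.0% higher. The libraries of the 2 groups did not overlap for 9 of the 18, against 28.3% of all genes, and the same count was 3 for TBT against DMSO (15.7%) and 7 for TBT against ROSI (20.7%). The genes that fell were all 5 tested inhibitors, both tested ligands, Axin2, Tcf7 and Fzd2, and the gene that rose was Fzd4. With tributyltin 4 of 18 passed, against 15.2% of all genes: Dkk2, Fzd4 and Fzd7 rose (8.22% of all genes did) and Dkk3 fell (7.03%). Between TBT and ROSI 8 of 18 differed, against 23.9% of all genes, 7 of them higher in TBT (12.8%) and 1 lower (11.1%). The median log2 fold change of the 18 genes was -0.65 for ROSI against DMSO, -0.19 for TBT against DMSO and 0.45 for TBT against ROSI, beside 0.0088, -0.011 and 0.017 over all tested genes.

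The first of these counts fell to 7 without DMSO replicate 1, DMSO replicate 4 or ROSI replicate 4 and to 6 without ROSI replicate 2, where all genes called went from 2787 to between 2219 and 2424. The second fell to 2 without DMSO replicate 1, TBT replicate 1 or TBT replicate 3, where all genes called went from 1879 to between 1019 and 1080. It was 6 without TBT replicate 4, where all genes called rose to 4124. The third fell to 5 without ROSI replicate 4 or TBT replicate 3, where 2708 and 1919 genes were called in place of 2940. Calls that held in every fit that tested the gene, whichever library or setting was changed, were those of Sfrp1, Sfrp4, Dkk3, Wnt2b, Axin2 and Fzd4 for ROSI against DMSO, of Dkk2 and Dkk3 for TBT against DMSO, and of Sfrp1, Sfrp4, Dkk2, Wnt2b and Fzd7 for TBT against ROSI.

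**Figure D1:**
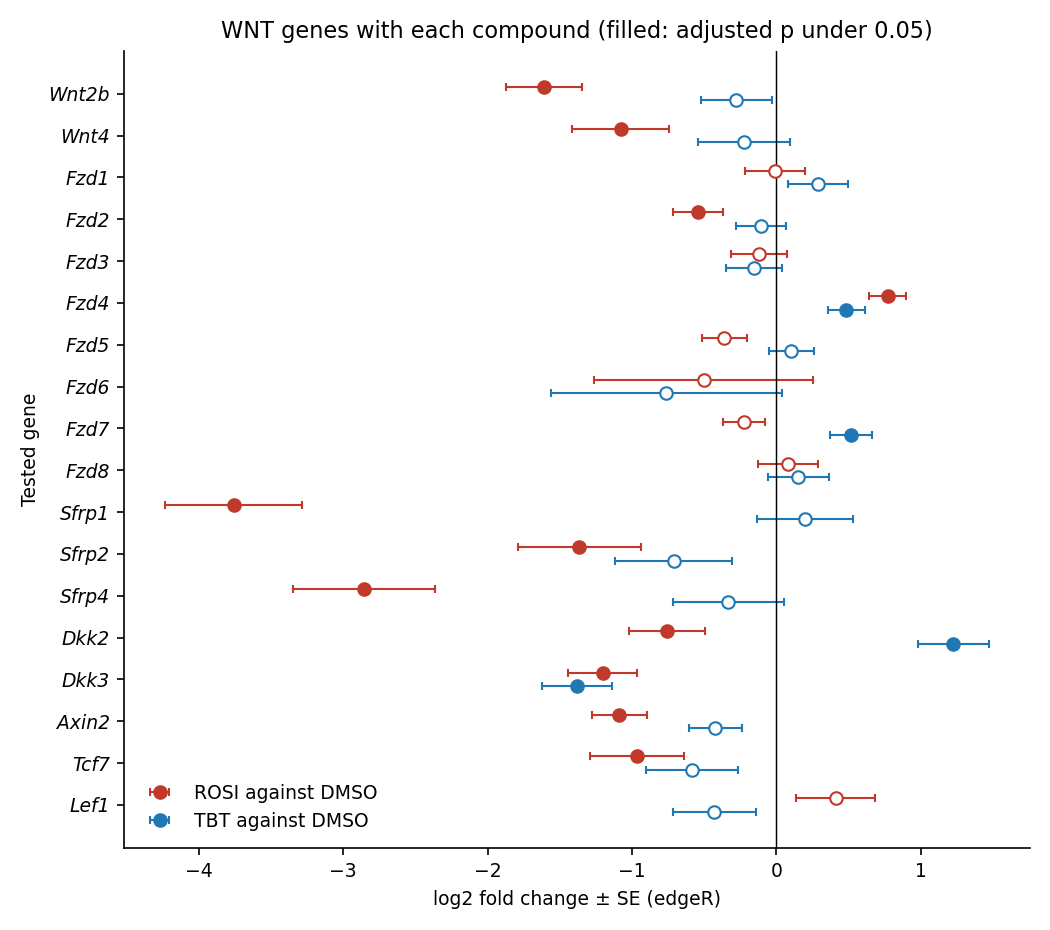
Log2 fold change ± SE (x axis, edgeR) of each of the 18 tested WNT genes (y axis) for ROSI against DMSO in red and TBT against DMSO in blue; filled points have an adjusted p under 0.05. Red points lie left of 0 for 15 genes and reach -3.76 for Sfrp1, while the blue points of Sfrp1, Sfrp4 and Wnt2b lie within 0.34 of 0.

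The start regions of 1 gene of each role are shown. Dkk2 rose with TBT and fell with ROSI, the fall being near the threshold (edgeR adjusted p = 0.045) and lost without any 1 of 7 libraries. Axin2 and Wnt2b both fell with ROSI, and Fzd4 rose with both compounds. Each region is 300 bases long, from 250 before to 50 after the start of the gene, from RefSeq on GRCm38.p6. The counts were made on mm9, so the link is by symbol only. Capitals mark TATAAA and GGGCGG (the latter as CCGCCC where it lies on the other strand), and neighbouring matches can overlap.
Dkk2, chr3:132085042-132085341, strand +: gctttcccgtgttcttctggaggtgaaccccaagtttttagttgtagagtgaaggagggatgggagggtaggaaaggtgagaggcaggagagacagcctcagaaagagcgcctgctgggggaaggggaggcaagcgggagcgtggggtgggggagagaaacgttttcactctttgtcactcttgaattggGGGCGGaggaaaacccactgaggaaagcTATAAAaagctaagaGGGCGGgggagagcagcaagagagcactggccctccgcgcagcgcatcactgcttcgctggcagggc
Axin2, chr11:108920099-108920398, strand +: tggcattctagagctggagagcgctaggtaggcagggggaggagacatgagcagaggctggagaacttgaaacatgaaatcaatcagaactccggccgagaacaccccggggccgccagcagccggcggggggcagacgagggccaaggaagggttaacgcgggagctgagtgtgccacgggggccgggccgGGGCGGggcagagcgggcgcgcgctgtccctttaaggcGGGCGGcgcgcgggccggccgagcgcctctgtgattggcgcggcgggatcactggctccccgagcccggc
Wnt2b, chr3:104961660-104961959, strand -: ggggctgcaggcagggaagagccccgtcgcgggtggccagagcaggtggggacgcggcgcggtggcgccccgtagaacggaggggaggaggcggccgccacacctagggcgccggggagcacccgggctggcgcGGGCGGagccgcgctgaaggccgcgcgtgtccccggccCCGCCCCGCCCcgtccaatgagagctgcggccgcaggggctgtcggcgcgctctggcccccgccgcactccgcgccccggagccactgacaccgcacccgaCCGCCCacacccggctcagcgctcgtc
Fzd4, chr7:89404116-89404415, strand +: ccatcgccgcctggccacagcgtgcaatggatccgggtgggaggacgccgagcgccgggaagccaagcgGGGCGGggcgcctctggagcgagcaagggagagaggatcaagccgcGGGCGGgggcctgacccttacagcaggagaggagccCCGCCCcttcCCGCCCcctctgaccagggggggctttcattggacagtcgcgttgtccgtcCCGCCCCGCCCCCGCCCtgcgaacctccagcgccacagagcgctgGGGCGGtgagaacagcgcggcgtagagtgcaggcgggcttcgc
The Dkk2 region was the least rich in G and C of the 4, at 57.7% with 11 CpG, and it holds TATAAA with its first base at -32, counted back from the start. Fzd4 had 72.7% and 32 CpG, Axin2 70.0% and 31, and Wnt2b 79.7% and 43, and none of these 3 regions holds TATAAA on either strand. The median of 32851 such regions was 52.7% with 7 CpG, and 13.6% held TATAAA. The 11 tested members that have an entry had a median of 70.0% G and C, and the part of base composition in the motif counts was not tested. The motif GGGCGG was in 9 of these 11, against 35.7% of all regions. The heptamers bound by TCF and LEF factors (CTTTG and then 2 bases that are each adenine or thymine, either strand) were in 1 of the 11, Fzd7, against 16.9% of all regions. AGGTCA, the core element of PPAR and retinoid X receptor sites, was in 0 of the 11 against 16.3%, and its repeat in the same direction with 1 base between, known as DR1, in 0 against 0.04%. For genes with several entries the first was used in these counts. Sfrp1, Sfrp4, Dkk3, Fzd2, Fzd3, Fzd6 and Fzd8 were tested but have no entry, so the motif counts do not cover them. Other entries of tested genes did hold such matches: entry 2 of Tcf7 has AGGTCA at -13, and entry 4 of Lef1 a TCF and LEF heptamer at -147. A missing match says only that these letters are not in this window.

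Among the secreted inhibitors, Sfrp1, which binds WNTs and frizzleds outside the cell, had the largest change of the 18 genes with rosiglitazone. Its level was 11.2, 12.4, 5.53 and 10.1 CPM in DMSO replicates 1 to 4, 1.00, 0.632, 0.905 and 0.201 in ROSI and 15.2, 7.33, 16.3 and 5.44 in TBT. Every ROSI library was below every DMSO and TBT library, while DMSO and TBT overlapped. Sfrp1 was 13.5-fold lower in ROSI than in DMSO (log2 fold change -3.76 ± 0.47 SE, edgeR adjusted p = 1.9e-05) and 15.5-fold higher in TBT than in ROSI (3.96 ± 0.47, edgeR adjusted p = 1.8e-05). TBT against DMSO gave 0.20 ± 0.33 (edgeR adjusted p = 0.71). Sensory receptor reads per kb of exon would give 0.434 CPM at the exon length of Sfrp1 in DMSO and 0.0582 in ROSI, so Sfrp1 stood 22.6 times above that level in DMSO and 11.8 times in ROSI.

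Sfrp4, a relative of Sfrp1, was also lowest in ROSI. It was at 5.23, 4.21, 2.76 and 3.48 CPM in DMSO, at 0, 0.316, 0.905 and 0.602 in ROSI and at 3.75, 1.54, 3.85 and 3.04 in TBT. The ROSI libraries lay below all others, with 12 counts between them, and the library at 0 could hide a level of up to 0.752 CPM (3 counts, counting error only). The fall with ROSI was -2.86 ± 0.49 (edgeR adjusted p = 0.00037) and TBT exceeded ROSI by 2.53 ± 0.51 (edgeR adjusted p = 0.0019). Sfrp4 against DMSO in TBT was at -0.33 ± 0.38 (edgeR adjusted p = 0.58).

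Sfrp2 was at 7.37, 8.89, 3.18 and 3.95 CPM in DMSO, 2.51, 1.11, 3.23 and 1.81 in ROSI and 3.57, 2.70, 5.78 and 1.74 in TBT. DMSO and ROSI just overlapped, since ROSI replicate 3 was above DMSO replicate 3. The fall with ROSI (-1.36 ± 0.42, edgeR adjusted p = 0.027) was lost if DMSO replicate 1 or 2 or ROSI replicate 2 or 4 was left out (highest adjusted p 0.101). TBT gave -0.71 ± 0.41 against DMSO (edgeR adjusted p = 0.24) and 0.65 ± 0.45 against ROSI (edgeR adjusted p = 0.30). In GENCODE M21 an exon of Gm26771 overlaps Sfrp2 on the minus strand, and the reads carry no strand.

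Dkk2 went in opposite directions with the 2 compounds. DKK2 binds LRP5 and LRP6, and can block or favour canonical signalling depending on the cell. Its level was 11.4, 16.4, 16.2 and 21.8 CPM in DMSO, 6.77, 8.06, 12.0 and 11.8 in ROSI and 51.5, 40.5, 40.2 and 22.6 in TBT. Every TBT library was above every other library, though TBT replicate 4 only just. Dkk2 rose with TBT by 1.23 ± 0.24 (edgeR adjusted p = 0.0042), or by 1.42 without TBT replicate 4, and was 3.96-fold higher in TBT than in ROSI (1.98 ± 0.25, edgeR adjusted p = 4.1e-05). The fall with ROSI, -0.76 ± 0.26, was near the threshold (edgeR adjusted p = 0.045), and leaving out DMSO replicate 2, 3 or 4, ROSI replicate 1 or 2, or TBT replicate 2 or 3 ended it (highest adjusted p 0.156), as did limma on the deposited log2 values.

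Dkk3 was the tested inhibitor with the most counts and the 1 member that fell with both compounds. DKK3 is a divergent member of the family. It was at 93.6, 88.9, 72.9 and 125 CPM in DMSO, 33.3, 25.1, 51.0 and 55.6 in ROSI and 37.5, 42.7, 43.0 and 23.1 in TBT. No ROSI or TBT library reached the lowest DMSO library. The log2 fold change was -1.20 ± 0.24 with ROSI (edgeR adjusted p = 0.0013) and -1.38 ± 0.24 with TBT (edgeR adjusted p = 0.0017), and the 2 compounds, whose DMSO libraries are shared, differed by -0.18 ± 0.24 (TBT against ROSI, edgeR adjusted p = 0.63). Per kb of exon, Dkk3 stood at 28.3 CPM in DMSO and Dkk2 at 4.44 with no overlap between libraries, whereas in TBT they were at 10.9 and 10.4 and overlapped.

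**Figure D2:**
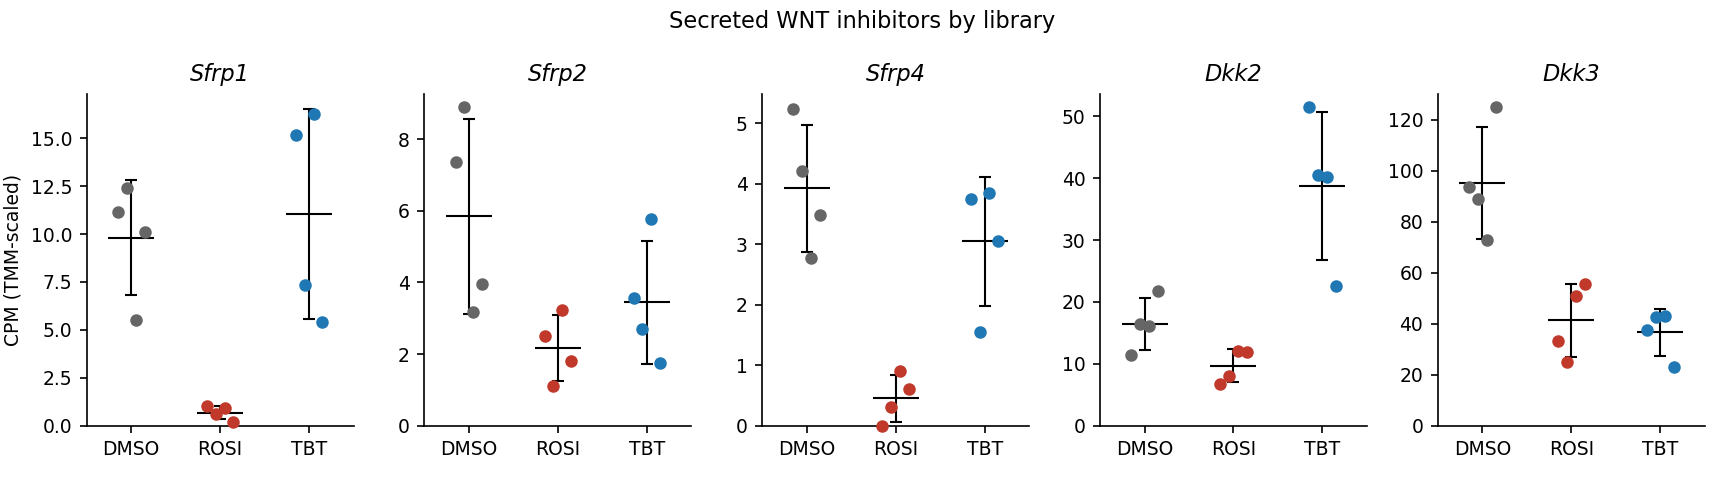
CPM (y axis, TMM-scaled, from 0) of the 5 tested secreted inhibitors in each of the 4 libraries of DMSO, ROSI and TBT (x axis); bars give the mean and SD. Sfrp1 is between 0.201 and 1.00 CPM in ROSI and above 5 CPM elsewhere, and Dkk2 is highest in TBT, from 22.6 to 51.5 CPM.

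Wnt2b was the leading ligand gene in every group. Of 1369 counts on the 19 ligand genes, 1039 were on Wnt2b and 150 on Wnt4, and Wnt2b held 78.1% of ligand counts in DMSO, 67.2% in ROSI and 77.5% in TBT. WNT2B acts through the canonical branch, and WNT4 through either branch depending on the cell. Wnt2b was at 20.7, 15.9, 21.4 and 30.8 CPM in DMSO, 7.02, 7.58, 6.86 and 7.82 in ROSI and 12.3, 22.2, 12.4 and 27.0 in TBT. The ROSI libraries lay close together and below all others, while TBT spread over the range of DMSO. Wnt2b was 3.05-fold lower in ROSI than in DMSO (-1.61 ± 0.26, edgeR adjusted p = 0.00023) and higher in TBT than in ROSI by 1.33 ± 0.27 (edgeR adjusted p = 0.0019). TBT against DMSO gave -0.28 ± 0.24 (edgeR adjusted p = 0.45).

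Wnt4 was at 2.85, 2.57, 2.76 and 3.63 CPM in DMSO, 1.00, 1.26, 2.07 and 1.00 in ROSI and 2.86, 1.74, 2.99 and 2.61 in TBT. No ROSI library reached a DMSO library, and TBT lay between or among them. The fall with ROSI was -1.08 ± 0.34 (edgeR adjusted p = 0.028). It was lost if DMSO replicate 1 or 4 or ROSI replicate 1, 2 or 4 was left out (highest adjusted p 0.0889), with DESeq2, and with no filter on low counts. TBT was at -0.22 ± 0.32 against DMSO (edgeR adjusted p = 0.66) and at 0.86 ± 0.35 against ROSI (edgeR adjusted p = 0.081). Wnt4 stood 7.10 times above the sensory-receptor level for its length in DMSO and 23.9 times in ROSI, the lowest DMSO ratio among the members that fell.

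The other 17 ligand genes were at the edge of detection in all groups. Wnt16, a ligand known from bone and joint tissue, had 13 counts with DMSO, 15 with ROSI and 12 with TBT, and Wnt5b had 15, 2 and 9. Wnt8b had 11, 7 and 4 counts, Wnt9a 6, 9 and 7, and Wnt6 5, 2 and 8. Wnt5a, the main noncanonical WNT of many stromal cells, had 4, 8 and 3 counts, and Wnt10a 6, 1 and 3. None of these 7 could be tested. In DMSO they stood between 0.255 times (Wnt5a) and 2.49 times (Wnt5b) the sensory-receptor level for their exon length, and the ratios ran from 1.53 (Wnt10a) to 12.1 (Wnt16) in ROSI and from 0.706 (Wnt5a) to 6.72 (Wnt6) in TBT, where that level was lower. Below 10 counts were Wnt2 and Wnt3 (9 each), Wnt11 (4), Wnt10b (3), Wnt7a and Wnt8a (2 each) and Wnt9b (1). Wnt1, Wnt3a and Wnt7b, like the receptor gene Fzd10, had 0 of 65290948 counts, which allows up to 0.046 CPM over all libraries (3 counts, counting error only).

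**Figure D3:**
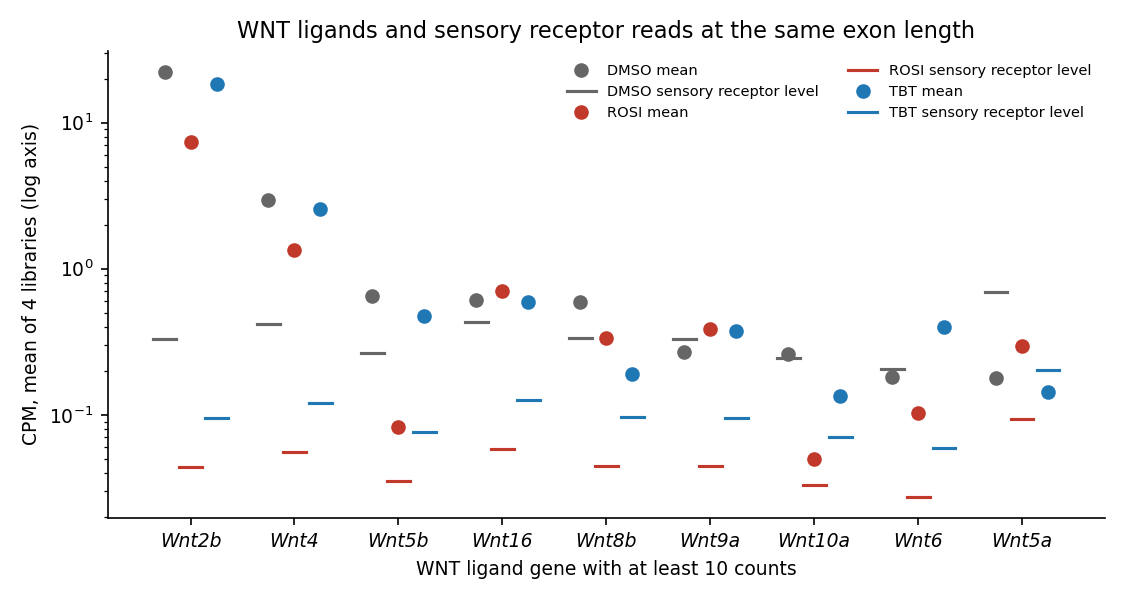
Mean CPM of 4 libraries (y axis, log) of each WNT ligand gene with at least 10 counts (x axis) in DMSO, ROSI and TBT (points), beside the level that sensory receptor reads would give at the same exon length in that group (short lines). Wnt2b and Wnt4 lie well above their lines, by 67.4 and 7.10 times in DMSO, while the DMSO points of the other 7 lie at 0.255 to 2.49 times theirs.

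Axin2, the feedback scaffold of β-catenin destruction, fell with rosiglitazone. It was at 13.3, 16.4, 16.02 and 21.3 CPM in DMSO, 8.02, 7.58, 8.54 and 7.42 in ROSI and 11.4, 10.2, 13.7 and 15.0 in TBT. The groups DMSO and ROSI did not overlap, nor did ROSI and TBT, and TBT reached into the range of DMSO. The log2 fold change was -1.09 ± 0.19 with ROSI (edgeR adjusted p = 0.00041) and -0.42 ± 0.18 with TBT (edgeR adjusted p = 0.12). Without TBT replicate 4, the highest TBT library, Axin2 passed narrowly in TBT against DMSO, at -0.51 (edgeR adjusted p = 0.0494). TBT exceeded ROSI by 0.67 ± 0.19 (edgeR adjusted p = 0.021), which was lost if ROSI replicate 2 or 4 or TBT replicate 3 was left out (highest adjusted p 0.0696).

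LEF and TCF factors carry β-catenin signals to DNA. Tcf7 was at 4.04, 3.28, 4.97 and 7.11 CPM in DMSO, 3.26, 2.84, 2.59 and 1.40 in ROSI and 4.11, 2.12, 3.64 and 3.26 in TBT. DMSO and ROSI were separated only by the gap between 3.28 and 3.26 CPM. Tcf7 fell with ROSI (-0.97 ± 0.33, edgeR adjusted p = 0.041), and this was lost with DESeq2 and when any of DMSO replicates 1, 3 and 4, ROSI replicates 2, 3 and 4 or TBT replicate 3 was left out (highest adjusted p 0.166). TBT gave -0.58 ± 0.32 against DMSO (edgeR adjusted p = 0.22). Lef1 was at 10.2, 7.25, 11.3 and 5.69 CPM in DMSO, 14.3, 7.27, 12.0 and 12.8 in ROSI and 9.65, 5.40, 4.92 and 5.44 in TBT. All 3 groups overlapped. Lef1 passed only between TBT and ROSI (-0.84 ± 0.28, edgeR adjusted p = 0.039), and it no longer did without ROSI replicate 1, 3 or 4 or TBT replicate 2 or 3 (highest adjusted p 0.11). Exons of Gm11670 overlap Axin2, and of Gm43352 Lef1, on the minus strand in GENCODE M21.

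**Figure D4:**
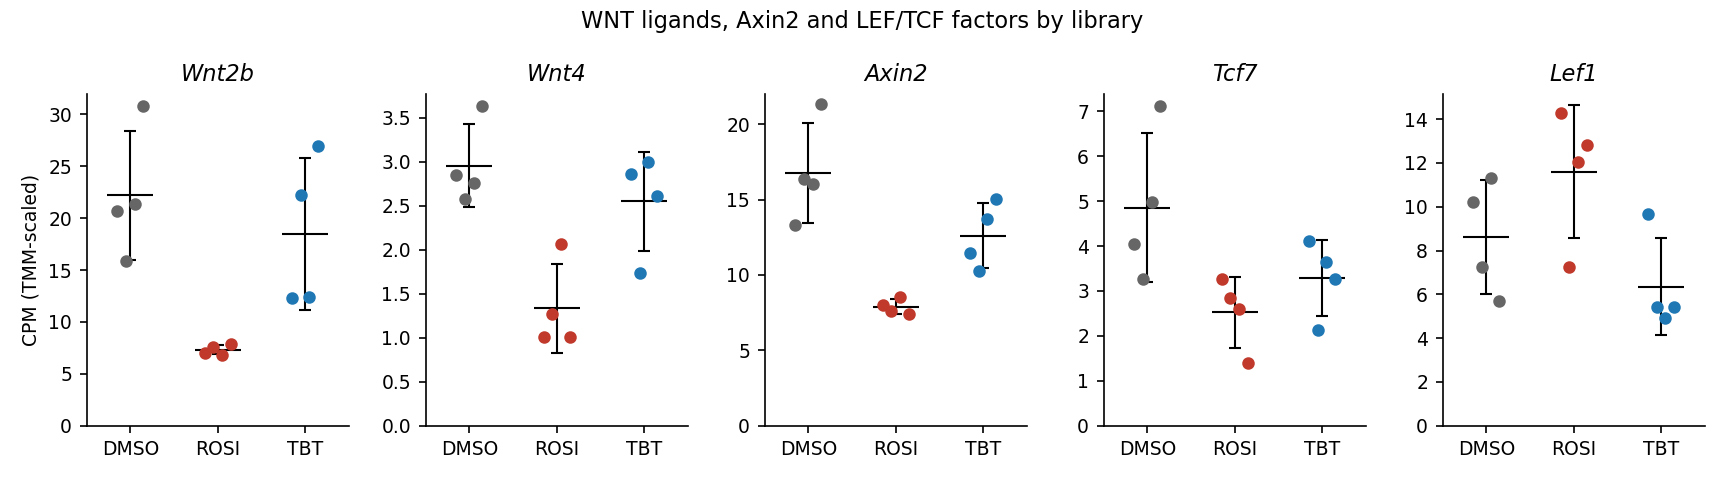
CPM (y axis, TMM-scaled, from 0) of Wnt2b, Wnt4, Axin2, Tcf7 and Lef1 in each of the 4 libraries of DMSO, ROSI and TBT (x axis); bars give the mean and SD. The ROSI libraries of Wnt2b sit between 6.86 and 7.82 CPM and those of Axin2 between 7.42 and 8.54, below all DMSO and TBT libraries, while the groups of Lef1 overlap.

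Among the frizzled receptor genes, 2 of the 8 tested passed in each comparison, or 25%, near the 22.6%, 15.2% and 23.9% of all genes. Different genes were compared per kb of exon, with lengths from GENCODE M21, while the annotation behind the counts is not given. The order depends on these lengths, since in CPM Fzd4 exceeded Fzd2 in DMSO (31.4 and 18.3) and Fzd3 exceeded Fzd8 (14.7 and 12.0). Per kb of exon, Fzd1 led in DMSO at 39.5 CPM, followed by Fzd7 at 23.7, Fzd5 at 8.10, Fzd2 at 5.00, Fzd4 at 4.67, Fzd8 at 2.01, Fzd3 at 1.16 and Fzd6 at 0.344. Wnt2b, the leading ligand gene, was at 6.69 CPM per kb. Neighbours in this order did not overlap between libraries except Fzd2 and Fzd4. In ROSI Fzd4 took the third place at 7.99 CPM per kb and overlapped Fzd5 at 6.31. In TBT Fzd1 (48.2) and Fzd7 (34.0) overlapped, and Fzd4 at 6.56 stood above Fzd2 at 4.66 with no overlap.

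Fzd4, a receptor that also serves the ligand Norrin, was the 1 WNT gene that rose with both compounds. It was at 29.2, 29.2, 37.7 and 29.4 CPM in DMSO, 48.4, 57.2, 52.6 and 56.6 in ROSI and 46.8, 44.2, 44.5 and 40.9 in TBT. The 3 groups did not overlap, in the order DMSO, TBT, ROSI. The rise was 0.77 ± 0.13 with ROSI (edgeR adjusted p = 0.00027) and 0.49 ± 0.13 with TBT (edgeR adjusted p = 0.019), and the difference of TBT against ROSI was -0.28 ± 0.13 (edgeR adjusted p = 0.11). The TBT call was lost if DMSO replicate 1 or 2 or TBT replicate 1 or 3 was left out (highest adjusted p 0.0584) and in a fit of those 2 groups alone.

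Fzd7 was at 95.5, 124, 107 and 105 CPM in DMSO, 86.0, 96.8, 98.2 and 86.7 in ROSI and 159, 109, 177 and 171 in TBT. All TBT libraries were above all ROSI libraries, and only TBT replicate 2 lay within the range of DMSO. Fzd7 was higher in TBT than in ROSI by 0.74 ± 0.15 (edgeR adjusted p = 0.0017) and higher than in DMSO by 0.52 ± 0.15 (edgeR adjusted p = 0.025). The second call was lost if DMSO replicate 1, 3 or 4 or TBT replicate 1 or 3 was left out (highest adjusted p 0.0891) and in a fit of those 2 groups alone. ROSI against DMSO gave -0.23 ± 0.15 (edgeR adjusted p = 0.31).

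Fzd2 was at 18.5, 16.6, 16.9 and 21.3 CPM in DMSO, 15.5, 12.5, 12.0 and 10.6 in ROSI and 15.2, 17.0, 14.8 and 21.3 in TBT. ROSI lay below DMSO in every library, and TBT overlapped both. Fzd2 fell with ROSI by 0.54 on the log2 scale (SE 0.17, edgeR adjusted p = 0.033), which was lost if DMSO replicate 1 or 4 or ROSI replicate 2, 3 or 4 was left out (highest adjusted p 0.115), and with no filter on low counts. Fzd5 was at 43.5, 51.5, 56.5 and 72.7 CPM in DMSO, 38.9, 45.3, 50.1 and 40.3 in ROSI and 64.0, 64.5, 63.7 and 49.4 in TBT. TBT replicate 4 was the 1 TBT library within the range of ROSI. Fzd5 was higher in TBT than in ROSI by 0.46 ± 0.16 (edgeR adjusted p = 0.041). Leaving out DMSO replicate 3, ROSI replicate 1, 2 or 4 or TBT replicate 1, 2 or 3 ended that call (highest adjusted p 0.119), as did upper-quartile scaling and no filter on low counts. An exon of Gm38058 overlaps Fzd5 on the plus strand in GENCODE M21.

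Fzd1, Fzd3, Fzd6 and Fzd8 passed in none of the 3 comparisons over all 12 libraries. Fzd1, the receptor gene with the most counts, had a mean of 166 ± 18.2 CPM with DMSO, 165 ± 41.0 with ROSI and 202 ± 60.7 with TBT (SD, n = 4). Its TBT replicate 4 was at 114 CPM and the other TBT libraries at 217 to 253. Without that library Fzd1 passed against DMSO at 0.49 and against ROSI at 0.50. Fzd3, known from planar polarity in neurons, was at 14.7 ± 2.66, 13.4 ± 2.07 and 13.1 ± 2.64 CPM, and Fzd8 at 12.0 ± 3.62, 12.6 ± 1.27 and 13.3 ± 2.55 (SD, n = 4). The SE of their log2 fold changes was between 0.19 and 0.21. Fzd6 had 72 counts in all and an SE of 0.76 to 0.84. Fzd9 was not tested, with 5 counts under DMSO, 19 under ROSI and 3 under TBT, and 11 of the 19 were in ROSI replicate 3.

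**Figure D5:**
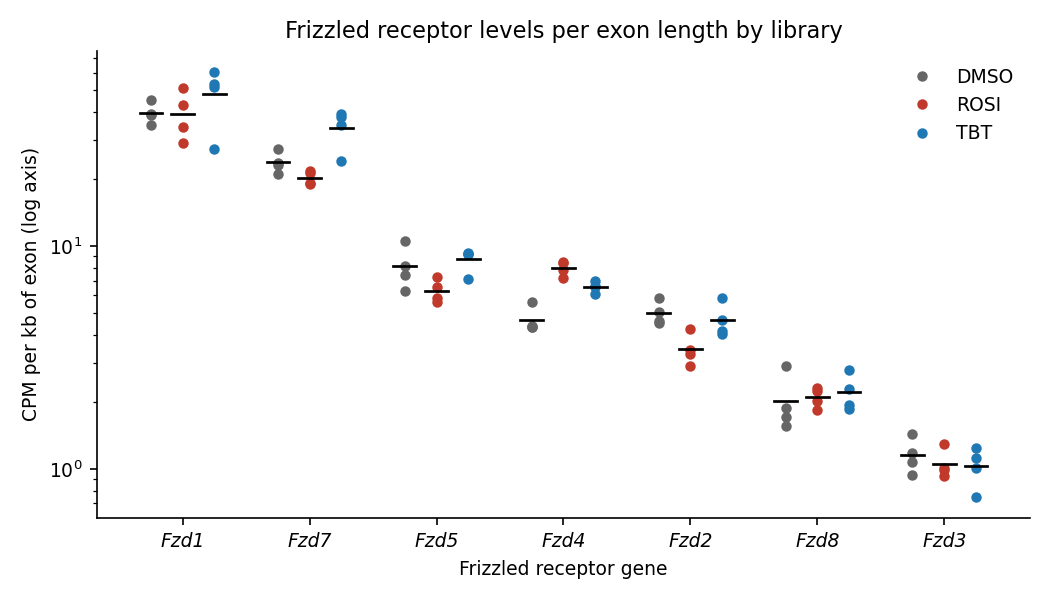
CPM per kb of exon (y axis, log) of 7 frizzled genes (x axis) in each library of DMSO, ROSI and TBT (points), with the group mean as a line; Fzd6 is left out because it is at 0 in 1 TBT library. Fzd1 and Fzd7 lie above 18 in every library, and Fzd4 moves from 4.67 in DMSO to 7.99 in ROSI.

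Of the inhibitors that could not be tested, Frzb, which binds WNTs in cartilage and stroma, had 33 counts in DMSO, 15 in ROSI and 25 in TBT. Sfrp5, known as an inhibitor made by fat tissue, had 8, 5 and 18 counts, of which 11 were in TBT replicate 4. Dkk1, the main soluble LRP blocker in bone, had 5, 2 and 6. Dkk4 had 9 counts and Wif1 3 over all libraries. In bulk libraries, fewer cells of a type and less RNA per cell cannot be told apart, which holds for all levels given here.

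Among other genes of the pathway, calls in both directions together were about as frequent as in the table as a whole. The split by direction was uneven in ROSI against DMSO and in TBT against ROSI. Of 77 tested genes on 3 lists of pathway genes, 22 passed in ROSI against DMSO (28.6% against 22.6% of all genes). Of these 5 were higher and 17 lower, beside 10.0% and 12.6% of all genes. In TBT against DMSO 13 passed (16.9% against 15.2%), 5 higher and 8 lower, beside 8.22% and 7.03% of all genes. In TBT against ROSI 19 passed (24.7% against 23.9%), 15 higher and 4 lower, beside 12.8% and 11.1% of all genes. Without TBT replicate 4 the pathway genes called in these 2 TBT comparisons numbered 26 and 29. The calls over all genes then went from 1879 to 4124 and from 2940 to 4826.

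On the list of coreceptors, WNT secretion and R-spondin genes, 6 of 21 passed with ROSI (2 higher, 4 lower; 28.6% against 22.6% of all genes) and 3 of 21 with TBT (1 higher, 2 lower; 14.3% against 15.2%). Porcn, the enzyme that attaches the lipid WNTs need for secretion, went in opposite directions. It was at 29.5, 23.2, 35.8 and 20.5 CPM in DMSO, 89.8, 83.9, 65.8 and 56.8 in ROSI and 11.4, 15.1, 13.5 and 17.8 in TBT. The 3 groups did not overlap. Porcn rose by 1.44 ± 0.19 with ROSI (edgeR adjusted p = 3.5e-05), fell by 0.92 with TBT (SE 0.21, edgeR adjusted p = 0.0083) and was 5.13-fold lower in TBT than in ROSI. Lgr5, a receptor of R-spondins, fell with ROSI from 4.42 to 1.15 CPM, and the planar polarity genes Prickle1 and Prickle2 fell with ROSI from 43.6 to 21.3 and from 41.4 to 24.2 CPM (means, n = 4). Lrp5, which encodes a WNT coreceptor, was higher in ROSI by 0.66 ± 0.22, which was lost with upper-quartile scaling and if any 1 of 6 libraries was left out (DMSO replicates 1, 2 and 4, ROSI replicates 1, 3 and 4, highest adjusted p 0.12).

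On the list of cytoplasmic and nuclear machinery, 8 of 34 passed with ROSI (2 higher, 6 lower; 23.5% against 22.6% of all genes) and 3 of 34 with TBT (2 higher, 1 lower; 8.82% against 15.2%). Among the 4 Groucho corepressor genes, whose products sit on TCF factors when β-catenin is absent, 3 were called lower with ROSI and 1 higher. Tle2 fell from 20.3 to 8.77 CPM with ROSI (-1.20 ± 0.18, edgeR adjusted p = 8.9e-05) while Tle3 rose from 27.6 to 47.5 CPM (0.78 ± 0.14, edgeR adjusted p = 0.00069). Tle1 (-0.36 ± 0.11, edgeR adjusted p = 0.027) and Tle4 (-0.42 ± 0.12, edgeR adjusted p = 0.019) were lower by less. The Tle1 call was lost if DMSO replicate 1 or 3 or ROSI replicate 1, 3 or 4 was left out (highest adjusted p 0.0913), the Tle4 call if DMSO replicate 2 or 4 or ROSI replicate 1 or 4 was (highest adjusted p 0.0727), and both with no filter on low counts. Tcf7l1 and Tcf7l2, the other TCF genes, passed in none of the 3 comparisons. Tnks2, a tankyrase that marks axin for destruction, rose with both compounds, by 0.48 ± 0.13 with ROSI and 0.82 ± 0.13 with TBT. Ctnnb1, which encodes β-catenin, was higher in TBT than in DMSO by 0.48 ± 0.15 (edgeR adjusted p = 0.044), and that call was lost if any 1 of 8 libraries was left out (DMSO replicates 1, 2 and 4, ROSI replicates 3 and 4, TBT replicates 1, 2 and 3, highest adjusted p 0.151), in a fit of those 2 groups alone, with upper-quartile scaling and with a mean of at least 5 CPM.

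On the list of genes known as WNT targets, 8 of 22 passed with ROSI (1 higher, 7 lower; 36.4% against 22.6% of all genes) and 7 of 22 with TBT (2 higher, 5 lower; 31.8% against 15.2%). Ccnd1, which encodes cyclin D1, had mean levels of 78.3 CPM (DMSO), 24.1 (ROSI) and 44.9 (TBT), and all 3 pairs of groups differed. Wisp2 fell with ROSI (-1.10 ± 0.17) and rose with TBT (0.74 ± 0.16). Dkk2 went the same ways, though its fall with ROSI was near the threshold. Tnfrsf19 fell with both, from 5.31 CPM to 1.87 and 1.69. Ctgf and Cyr61, which also respond to signals other than WNT, fell with ROSI by 2.02 and 0.91 on the log2 scale, and Jag1, a Notch ligand gene, rose by 0.86. Postn, the matrix gene periostin, rose with TBT from 44.4 to 103 CPM (1.23 ± 0.21, edgeR adjusted p = 0.0015). Many of these genes answer to several pathways. Smooth muscle and pericyte markers summed to 705 to 908 CPM in DMSO, 335 to 384 in ROSI and 619 to 1077 in TBT, most of it Acta2. Acta2, Tagln and Cnn1 were called lower in ROSI than in DMSO, and none of them was called in TBT against DMSO. Myh11 was called higher in TBT (2.08 ± 0.33, edgeR adjusted p = 0.00079) and was not called in ROSI against DMSO. The part of these markers in the calls was not tested.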

How the data were processed

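RNA was freed of ribosomal RNA and sequenced on the SOLiD platform, 50 nt from 1 end and without strand, per the labels' protocols. The authors deposited a table of raw counts per gene symbol and a table of regularized log2 values. The submitters' processing notes name mm9, DESeq2, SAMtools and FastQC. An aligner, counting program or annotation is not given in the sources used here. Library totals ran from 4027152 to 7474654 counts.

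Counts were analysed with edgeR 4.0.16 in R 4.3.3 (filterByExpr, TMM, 1 quasi-likelihood model over 12 libraries without covariates, Benjamini-Hochberg over 12323 genes, threshold 0.05). SE is the log2 fold change over the root of its F statistic. Alternatives used DESeq2 1.42.0, limma 3.58.1 on the deposited log2 values, other scalings and filters, a replicate block, only the 2 groups compared, and fits without each library. Exon lengths and overlaps came from GENCODE M21 (GRCm38), matched by symbol.

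Named genes are all members with at least 10 counts, and called genes of 3 pathway lists. Members and lists were chosen with earlier results of these data known. Nothing states that the 4 libraries per group are separate cultures: the p-values then cover only variation among these libraries, possibly technical. Replicates differed beyond sampling noise in every pair (lowest chi-square per degree of freedom 4.66). The scripts were tested on simulated data. Over the 3 comparisons, 17.2% to 25.4% of simulated 1.5-fold changes were called, 67.2% to 75.7% of 2-fold changes and 95.4% to 97.2% of 4-fold changes. A gene that was not called may therefore still have changed.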

Additional observations from a re-analysis of the deposited data

Results flagged for a closer look

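In 9 of 87 groups of 4 libraries (29 genes in 3 groups), 1 library stood further from the others than Dixon's 95% critical value allows. For normally distributed values chance alone flags about 1 in 20. That rate does not hold near 0, where 1 count is flagged if the other libraries are at 0, so 9 of 87 cannot be set against it. Among tested genes, Fzd4 was at 37.7 CPM in DMSO replicate 3 and at 29.2 to 29.4 in the other DMSO libraries. Fzd5 was at 49.4 CPM in TBT replicate 4 and at 63.7 to 64.5 in the other TBT libraries. Lef1 was at 9.65 CPM in TBT replicate 1 and at 4.92 to 5.44 in the others. The other 6 rest on 11 counts or fewer. Fzd9 was at 1.42 CPM in ROSI replicate 3, Sfrp5 at 2.39 in TBT replicate 4, Wnt8b at 1.20 in ROSI replicate 4, Wnt9a at 1.497 in TBT replicate 3, and Wnt10a at 0.201 in ROSI replicate 4 and 0.536 in TBT replicate 1.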

How the results depend on the processing

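Of 11 WNT genes called for ROSI against DMSO, 7 were called with a mean of at least 5 CPM, where fewer genes are tested, and 7 with the replicate block; 6 to 11 were called without 1 library. For TBT against DMSO, 2 of 4 were called in a fit of only the 2 groups, 3 with the replicate block and 2 to 6 without 1 library. For TBT against ROSI 7 of 8 were called with the block and 5 to 9 without 1 library. Over all genes, 1199 were called for TBT against DMSO in a fit of 2 groups and 1160 with the block, beside 1879, and 1019 to 4124 without 1 library; for TBT against ROSI 1732 to 4826 were called without 1 library, beside 2940. Other pathway genes called numbered 9 to 26 and 14 to 29 without 1 library in these 2 comparisons. Without both DMSO replicate 3 and TBT replicate 4, chosen after the data were seen, 3741 and 4650 genes and 28 and 29 pathway genes were called. The block ended the calls of Dkk2, Wnt4, Tcf7 and Fzd2 for ROSI against DMSO, of Fzd7 and Ctnnb1 for TBT against DMSO and of Fzd5 for TBT against ROSI, among others. The replicate numbers did not pair the libraries: correlations of same-numbered deviations ran from -0.432 to 0.138, and 1 of 12 libraries correlated best with its own number. No called change turned its direction. Signs turned for uncalled genes near 0: Fzd1 in ROSI against DMSO (0.014 with DESeq2, 0.0054 with DESeq2 size factors, 0.016 without a filter, and from -0.15 to 0.12 without 1 library), Fzd3 in TBT against ROSI (0.059 without DMSO replicate 3 and TBT replicate 4, and -0.13 to 0.096 without 1 library), Fzd6 (-0.97 to 0.043 in ROSI against DMSO and -1.62 to 0.21 in TBT against ROSI), Fzd8 (-0.028 to 0.30 and -0.082 to 0.15) and Sfrp1 in TBT against DMSO (-0.046 to 0.44); the cause was not tested. Depth limits the 11 named genes that could not be tested.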
